A study of Mus musculus with 34 samples.

Results

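RFX1, RFX2 and RFX3 are winged-helix transcription factors that bind X-box motifs, imperfect inverted repeats found in promoters of many ciliary genes. Ependymal cells line the brain ventricles and carry tufts of motile cilia, each built on an axoneme with dynein arms, radial spokes and a central pair of microtubules. RFX2 and RFX3 are best known as activators of motile cilium genes, while RFX1 is more widely expressed and has been described as both an activator and a repressor. The comparison described here asked which of the transcript losses seen without Rfx2 or without Rfx3 were spared in cells without Rfx1. It was the difference between the Rfx1 knockout effect and the mean of the Rfx2 and Rfx3 knockout effects, computed for every gene in a single fit, and it used all 34 of the 34 libraries of the series.

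The libraries were bulk RNA-seq of mouse ependymal cells differentiated in culture. Cells were dissociated from the lateral ventricular walls of E18.5 embryos, grown to confluency and then kept for 4 days in medium lacking serum. The groups were Rfx1-/- (4 libraries) and their +/+ siblings (4), Rfx2-/- (6) and their +/+ siblings (8), and Rfx3-/- (6) and their +/+ siblings (6), called KO and WT below. All carry the strain label C57BL/6, and every title also holds the term OF1, which the labels do not explain. The labels give the knockouts as -/- and name no Cre driver and no deleted exon. Whether replicates are separate embryos or cultures is not stated, and p-values therefore measure the spread between libraries, which may be technical. In bulk cultures, fewer cells of a type and less RNA per cell cannot be told apart.

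Libraries held 18.2 to 53.4 M counts each, and 14833 genes passed the filter on low counts. Levels are given as CPM, counts scaled to a common library size with TMM factors, and effects as log2 of KO over WT, so that a positive difference between effects means a smaller loss or a larger gain in the Rfx1 line. A gene was called when its adjusted p (edgeR quasi-likelihood test, Benjamini-Hochberg over the 14833 genes) was below 0.05. Expression of Y-linked genes was seen in 1 of 4 Rfx1 KO and 4 of 4 Rfx1 WT libraries, so the sex of the embryos moved with the genotype in the Rfx1 line. Rfx2 libraries showed it in 3 of 6 KO and 4 of 8 WT libraries, and Rfx3 libraries in 4 of 6 KO and 2 of 6 WT libraries. The summed level of 32 ribosomal protein genes was 2238 to 2422 CPM in Rfx2 KO and 1784 to 2394 CPM in Rfx2 WT libraries, against 5884 to 12210 CPM across both other lines. Rfx3 KO replicate 3 held the highest of those values.

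Loss of Rfx1 changed almost no transcript by the test, whereas loss of Rfx2 or Rfx3 changed many. The Rfx1 effect was called higher for 2 genes (0.0135% of those tested) and lower for 4 genes (0.027%). The Rfx2 effect was called higher for 1377 genes (9.28%) and lower for 1882 (12.7%), and the Rfx3 effect higher for 2720 (18.3%) and lower for 2647 (17.8%). Numbers of libraries differ between the lines, and the median standard error over all genes was 0.13 log2 units for the Rfx1 effect, 0.10 for the Rfx2 effect and 0.11 for the Rfx3 effect. At an unadjusted p below 0.05 the Rfx1 effect passed for 376 of 14833 genes. That is a smaller share than the 0.05 that such a threshold passes where no gene differs. DESeq2 called 9 genes.

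The difference between the Rfx1 effect and the mean of the other effects was tested directly. It was called higher for 347 genes (2.34%) and lower for 119 genes (0.802%). Against the Rfx2 effect alone, 88 genes were higher (0.593%) and 35 lower (0.236%). Against the Rfx3 effect alone, 711 genes were higher (4.79%) and 438 lower (2.95%). These 3 contrasts share the Rfx1 libraries, so their counts are not independent of each other. The counts depended strongly on single libraries. Of the 347 higher calls, the number fell to 21 without Rfx1 KO replicate 3, to 24 without Rfx1 WT replicate 2, to 56 without Rfx1 WT replicate 1 and to 65 without Rfx1 WT replicate 3. It was 179 without Rfx3 WT replicate 3, 226 without Rfx3 KO replicate 5, 227 without Rfx1 KO replicate 2 and 229 without Rfx2 WT replicate 2. It was 577 without Rfx2 WT replicate 5, 626 without Rfx2 WT replicate 1, 682 without Rfx1 KO replicate 4, and 697, 751 and 788 without Rfx3 KO replicate 2, 1 and 3 in turn. With the replicate number of each line as a block, 70 genes were higher and 36 lower, and same-numbered KO and WT libraries deviated together throughout the Rfx2 line but not throughout the Rfx1 or Rfx3 line. Even so, Rfx2 KO replicates 3, 5 and 6 correlated more with a WT library of another number. The 119 lower calls ran from 6 without Rfx1 KO replicate 3 to 330 without Rfx3 KO replicate 3. The median difference over the genes lost in both other lines, described next, lay between 0.51 and 0.71 in all of these fits, a range that the choice of those genes partly fixes.

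Genes lost in both other lines kept nearly their wild-type level without Rfx1. A gene is called lost here where its Rfx2 effect and its Rfx3 effect were both called and negative, which held for 1330 genes (8.97%). The median effect over these 1330 genes was -0.04 in the Rfx1 line, against -0.65 in the Rfx2 line and -0.70 in the Rfx3 line. The Rfx2 and Rfx3 medians are fixed by the choice of genes, and the Rfx1 median comes from libraries the choice did not use. The middle 50% of the Rfx1 effects lay between -0.13 and 0.02. They were negative for 889 of the 1330 genes (66.8%), against 47.7% of all genes tested. An unadjusted p below 0.05 was reached for 25 of them on the lower side and for 0 on the higher side. Over all 14833 genes tested it was reached for 128 on the lower side and 248 on the higher side. None of the 1330 had a called Rfx1 effect by edgeR's test, by DESeq2 or by limma-voom. The median Rfx1 effect was -0.17 without Rfx1 KO replicate 3 and 0.03 without Rfx1 KO replicate 4.

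The same pattern was seen library by library. Averaged over the 1330 genes, log2 CPM relative to the WT mean of the line was -0.19, -0.08, 0.28 and -0.40 in Rfx1 KO libraries, against -0.06, -0.15, 0.05 and 0.16 in Rfx1 WT libraries. The Rfx1 groups overlapped, and the KO libraries spread more widely than the WT ones. Over Rfx2 libraries the average was -0.77 ± 0.07 in KO (SD, n = 6) and ran from -0.42 to 0.42 in WT. Over Rfx3 libraries it was -0.92 ± 0.42 in KO (SD, n = 6) and ran from -0.12 to 0.11 in WT. All Rfx2 KO and all Rfx3 KO libraries lay below every WT library of their own line. The genes were chosen as lower in these same libraries, so that separation is a description and adds no support. The lowest Rfx1 KO library, at -0.40, lay above the highest Rfx3 KO library, at -0.44. The distance between those 2 values was small, and 3 Rfx3 KO libraries lay between -0.74 and -0.44 while the other 3 lay between -1.45 and -1.19.

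**Figure D1:**
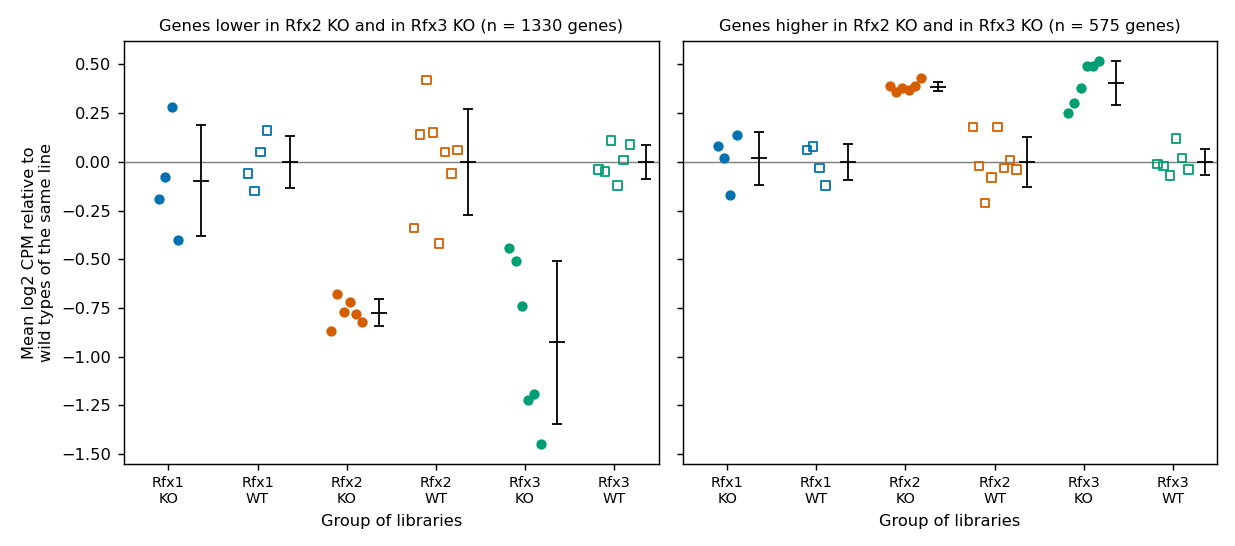
Mean log2 CPM of each library, relative to the WT mean of its line (y axis), over the 1330 genes lower in Rfx2 KO and in Rfx3 KO (left) and the 575 genes higher in both (right); filled circles are KO and open squares WT libraries, grouped on the x axis, and bars give mean ± SD. Rfx1 KO libraries (-0.40 to 0.28 on the left) overlap Rfx1 WT libraries, while Rfx2 KO (-0.87 to -0.68) and Rfx3 KO (-1.45 to -0.44) lie below all of their WT libraries. The choice of genes favours these positions of the Rfx2 KO and Rfx3 KO libraries.

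For 288 of the 1330 lost genes (21.7%) the difference itself was called higher, against 2.34% of all genes. The contrast shares the Rfx2 and Rfx3 libraries with the choice of lost genes, so this share was bound to exceed the background and is given as a description. These 288 genes, called spared losses below, had median effects of 0.03 in the Rfx1 line, -0.87 in the Rfx2 line and -1.08 in the Rfx3 line, and a median difference of 1.07. Against the Rfx2 effect alone 66 of them were called, and against the Rfx3 effect alone 233 (these contrasts share the Rfx1 libraries). The number of lost genes with a called difference was 16 without Rfx1 KO replicate 3, 20 without Rfx1 WT replicate 2, 42 without Rfx1 WT replicate 1 and 54 without Rfx1 WT replicate 3. It was 151 without Rfx3 WT replicate 3, 183 without Rfx1 KO replicate 2, and between 188 and 191 without Rfx2 WT replicate 2, Rfx3 KO replicate 5 or Rfx2 KO replicate 1. It was 500 and 542 without Rfx2 WT replicates 5 and 1, 578 without Rfx1 KO replicate 4, and 577, 625 and 664 without Rfx3 KO replicates 2, 1 and 3. With the replicate number as a block it was 59, and 58 of the 288 were among these.

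The 1042 lost genes whose difference was not called had a median Rfx1 effect of -0.06 and a median difference of 0.55, and 74.5% of their Rfx1 effects were negative. Among the 320 genes lost at least 2-fold in both lines, 114 had a called difference (35.6%), the median Rfx1 effect was -0.13, and 75% of the Rfx1 effects were negative. Each Rfx1 group holds 4 libraries, and the test estimates the spread of a gene over all 6 groups together. How firmly a single gene can be called spared depends on both. With the mean of the Rfx2 and Rfx3 effects taken as fixed, the 95% interval of the Rfx1 effect excluded a loss of 50% of that mean on the log2 scale for 284 of the 1330 genes, and included it for 1046. Serpinb1b, a protease inhibitor gene, and Agbl2 lay just inside the threshold, with differences of 1.30 and 0.76 at an adjusted p of 0.0499 each in edgeR's test. Just outside it lay Ift80 and Zbbx, with differences of 0.46 and 1.20 at 0.0501 each.

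**Figure D2:**
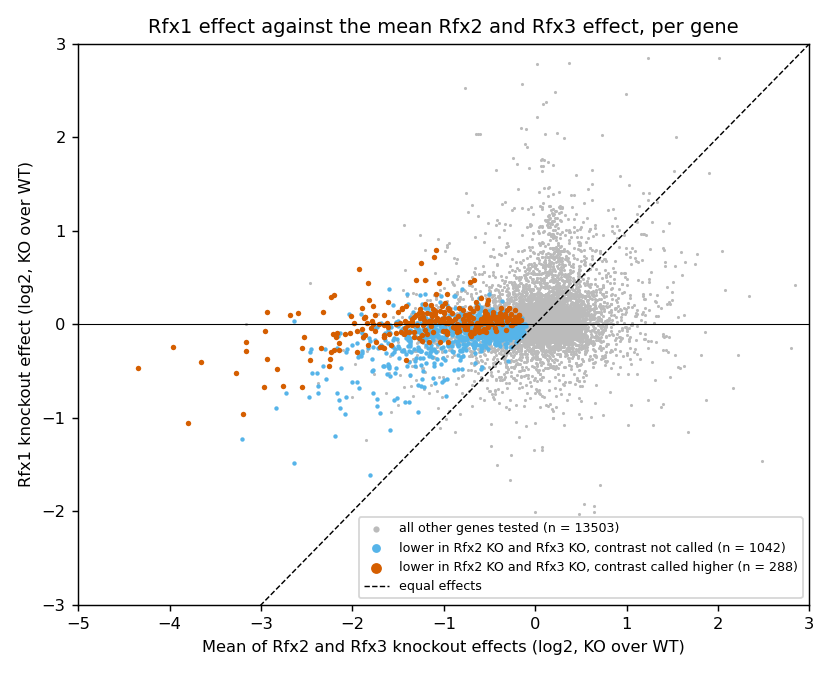
Rfx1 knockout effect (y axis) against the mean of the Rfx2 and Rfx3 knockout effects (x axis), both log2 of KO over WT, for each gene tested; orange points are the 288 spared losses, blue points the other 1042 genes lower in both lines, grey points all others, and 6 genes lie outside the axes. The lost genes, with a median of -0.04 on the y axis, form a band near the horizontal line rather than along the dashed line of equal effects.

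The Rfx genes themselves were examined first, since the targeted gene checks the labels. Rfx1 (chromosome 8, 84066834 to 84096992, build GRCm38) had 19.9, 30.2, 28.8 and 22.4 CPM in Rfx1 KO libraries, against 65.0, 52.8, 71.8 and 77.4 CPM in Rfx1 WT libraries. All 4 KO libraries lay below all 4 WT libraries, with an effect of -1.40 (95% interval -1.67 to -1.13, adjusted p 9.85e-08 in edgeR's test). Rfx1 was itself a little lower in Rfx3 KO, with an effect of -0.44, and its effect in the Rfx2 line was -0.09.

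Rfx2, the target of its own line, was also lower without Rfx3 and was spared without Rfx1. It had 142, 140.2, 157 and 115 CPM in Rfx1 KO libraries, against 119, 113, 130.3 and 129 CPM in Rfx1 WT libraries, and the groups overlapped. Among Rfx2 libraries it ran from 43.3 to 55.3 CPM in KO, with a median of 48.7, against 83.4 to 126 CPM in WT, with a median of 109. Among Rfx3 libraries it ran from 59.7 to 106 CPM in KO, with a median of 73.0, against 111 to 123 CPM in WT, with a median of 117. The difference was 1.0 ± 0.15 (SE, adjusted p 0.000603 in edgeR's test). Rfx3 had 175, 161, 211 and 182 CPM in Rfx1 KO libraries, against 154, 139, 153 and 157 CPM in Rfx1 WT libraries. Every Rfx1 KO library exceeded every WT library for Rfx3, but the effect of 0.27 was not called (95% interval -0.01 to 0.55). The change of the Rfx3 transcript was -0.04 in the Rfx2 line and -2.14 in its own line, where it is the target.

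Foxj1 and Mcidas stand upstream in the programme of multiciliation: Mcidas encodes a coiled-coil regulator that starts it, and Foxj1 a forkhead factor that activates motile cilium genes together with RFX factors. Foxj1 had 1512, 1686, 2018 and 1290.1 CPM in Rfx1 KO libraries, against 1528, 1592, 1799 and 1955 CPM in Rfx1 WT libraries. Its effects were -0.08, -0.59 and -0.52 in the Rfx1, Rfx2 and Rfx3 lines, and the difference was 0.48 ± 0.22 (SE, adjusted p 0.216 in edgeR's test). The Rfx3 KO libraries were split, at 1473, 1437, 1394, 754, 755 and 677 CPM, against 1431 to 1714 CPM in Rfx3 WT. Rfx2 KO libraries ran from 639 to 827 CPM, against 813 to 1466 CPM in Rfx2 WT. Mcidas had 55.3, 64.8, 77.4 and 45.5 CPM in Rfx1 KO libraries, against 48.6, 68.9, 79.3 and 70.2 CPM in Rfx1 WT libraries. Its difference was 1.03 ± 0.47 (SE, adjusted p 0.201 in edgeR's test), with effects of -0.14, -1.47 and -0.87 in the Rfx1, Rfx2 and Rfx3 lines. Here too the Rfx3 KO libraries were split, at 93.2, 90.5, 66.7, 19.8, 22.2 and 13.2 CPM, against 68.3 to 111 CPM in Rfx3 WT. Rfx2 KO libraries ran from 11.9 to 23.1 CPM, against 25.9 to 86.6 CPM in Rfx2 WT. The 95% interval of the Mcidas difference was 0.07 to 1.99, and its adjusted p ran from 0.041 to 0.268 over 9 alternative settings, below the threshold only where each line was fitted alone. For neither gene did the Rfx1 groups separate.

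Promoters were searched for RFX-type letters, and the share with a single site was close in spared losses and in the other lost genes. The search covered both strands of the window from 250 bases before to 50 bases after each gene start in RefSeq (GRCm38.p6). The single site was GTTGCC, and the inverted repeat was GTTNCC, then 0 to 3 bases, then GGNAAC; a repeat can contain a single site and then counts for both. Of 1056 lost genes with a RefSeq promoter, 27.5% held the single site, against 15.3% of 11597 genes tested and 12.5% of all 32851 RefSeq promoters. Of 228 spared losses 27.6% held it, and of the 828 lost genes with no called difference 27.4%. The inverted repeat was rarer, in 5 of the 228 spared losses (2.19%) and 28 of the 828 other lost genes (3.38%), against 1.10% of genes tested. Among 446 genes gained in both lines, described further on, 12.8% held the single site and 0.224% the repeat, and a match is a description of letters, not a site of binding.

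Stretches of 5 such promoters are shown because they put the motif beside a spared gene that is described by its values, with the motif in capitals and 30 bases before it. Of the 5 spared losses with the full repeat, 1700010I14Rik, Ccdc180, Rnf185, Tctn1 and Tctn3, the first and last are printed (chr17:8988278-8988332, plus strand, and chr19:40612329-40612401, minus strand). The single site is printed for Rfx2 (chr17:56831089-56831154, minus strand), Ccdc78 (chr17:25786535-25786579, plus strand) and Cfap74 (chr4:155409044-155409109, plus strand). All are given 5′ to 3′ on the strand of the gene, from RefSeq, build GRCm38.p6, and GGCAAC is the single site read on the other strand.
1700010I14Rik: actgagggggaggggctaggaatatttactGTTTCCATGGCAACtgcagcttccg
Tctn3: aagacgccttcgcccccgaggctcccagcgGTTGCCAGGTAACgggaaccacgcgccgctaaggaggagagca
Rfx2: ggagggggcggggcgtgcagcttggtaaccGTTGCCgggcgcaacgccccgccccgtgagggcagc
Ccdc78: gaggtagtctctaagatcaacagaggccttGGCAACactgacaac
Cfap74: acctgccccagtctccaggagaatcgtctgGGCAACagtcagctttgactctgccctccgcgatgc
The motif ended 11 bases before the gene start in 1700010I14Rik, 127 in Tctn3, 110 in Rfx2, 9 in Ccdc78 and 110 in Cfap74. Tctn3, which encodes a tectonic protein of the transition zone, had effects of 0.08, -0.47 and -0.56 in the Rfx1, Rfx2 and Rfx3 lines, and a difference of 0.59 ± 0.16 (SE, adjusted p 0.0407 in edgeR's test). For 1700010I14Rik, a gene without a descriptive name, the effects were 0.04, -0.78 and -1.49, and the difference was 1.18 ± 0.21 (SE, adjusted p 0.00417). Both were chosen after their values were seen.

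The 8 named spared losses with the largest differences stood at or below 116 CPM in every Rfx1 library. They were chosen among genes whose Rfx2 and Rfx3 knockouts all lay below the wild-type mean. That choice favours a separation of KO from WT libraries in those 2 lines. Tmem212, which encodes a membrane protein used as an ependymal marker (chromosome 3, 27866066 to 27896368), had 2.93, 4.12, 9.43 and 1.17 CPM in Rfx1 KO libraries, against 6.54, 2.95, 5.73 and 9.07 CPM in Rfx1 WT libraries. In the Rfx2 line it ran from 0.0371 to 0.332 CPM in KO, with a median of 0.145, against 0.632 to 10.9 CPM in WT, with a median of 4.98. In the Rfx3 line it ran from 0.0782 to 1.59 CPM in KO, with a median of 0.825, against 7.06 to 17.2 CPM in WT, with a median of 9.20. The Rfx1 groups overlapped, and no Rfx2 or Rfx3 KO library reached its WT range. Its difference was 3.89 ± 0.80 (SE, adjusted p 0.0149 in edgeR's test), from effects of -0.47, -5.07 and -3.63 in the Rfx1, Rfx2 and Rfx3 lines.

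Ccdc33, a coiled-coil gene (chromosome 9, 58028677 to 58118823), had 8.28, 12.2, 20.6 and 5.54 CPM in Rfx1 KO libraries, against 14.1, 8.23, 13.6 and 13.2 CPM in Rfx1 WT libraries. Rfx2 KO libraries ran from 0.663 to 1.08 CPM and their WT from 3.34 to 14.4 CPM, and Rfx3 KO libraries from 0.508 to 4.64 CPM and their WT from 8.76 to 21.8 CPM. The Rfx1 effect was -0.07 (95% interval -0.97 to 0.82), and the difference was 2.89 ± 0.53 (SE, adjusted p 0.00447 in edgeR's test). Pcsk2, the prohormone convertase PC2 (chromosome 2, 143546156 to 143816285), had 4.84, 6.44, 7.90 and 4.47 CPM in Rfx1 KO libraries, against 4.88, 3.98, 4.37 and 4.28 CPM in Rfx1 WT libraries. The KO values lay at or above the middle of the WT values, and the groups overlapped. In Rfx2 KO it ran from 0.482 to 1.08 CPM, against 1.34 to 4.03 CPM in WT, and in Rfx3 KO from 0.626 to 2.89 CPM, against 4.75 to 8.55 CPM in WT. Its difference was 2.27 ± 0.38 (SE, adjusted p 0.00189 in edgeR's test).

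Qrfp, which encodes an RFamide neuropeptide, and Musk, a receptor tyrosine kinase best known from the neuromuscular junction, followed the same order of lines. Qrfp had 9.69, 13.4, 17.2 and 10.9 CPM in Rfx1 KO libraries, against 11.6, 7.40, 9.17 and 13.7 CPM in Rfx1 WT libraries, with an overlap of the groups. Its median was 0.76 CPM in Rfx2 KO and 4.40 CPM in Rfx2 WT libraries, and 2.21 CPM in Rfx3 KO and 9.47 CPM in Rfx3 WT libraries, and the difference was 2.53 ± 0.55 (SE, adjusted p 0.0179 in edgeR's test). Musk had 12.4, 13, 25.1 and 7.72 CPM in Rfx1 KO libraries, against 15.6, 12.1, 16.5 and 19.3 CPM in Rfx1 WT libraries. KO replicate 3 was the highest and KO replicate 4 the lowest of these 8 values. Its difference was 2.4 ± 0.50 (SE, adjusted p 0.0158 in edgeR's test), with Rfx2 KO at 1.18 to 1.73 CPM against 4.68 to 21.6 CPM in Rfx2 WT, and Rfx3 KO at 0.706 to 5.47 CPM against 6.84 to 20.4 CPM in Rfx3 WT.

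Cdhr4, a cadherin-related gene, was only partly spared. It had 4.22, 4.12, 9.43 and 1.36 CPM in Rfx1 KO libraries, against 10.5, 5.79, 8.37 and 12.6 CPM in Rfx1 WT libraries, so that 3 of 4 KO libraries lay below every WT library. The Rfx1 effect was -0.96, with a 95% interval of -1.90 to -0.03, and its adjusted p in edgeR's test was 1.0. The effects in the Rfx2 and Rfx3 lines were -3.74 and -2.66, and the difference was 2.24 ± 0.54 (SE, adjusted p 0.0263 in edgeR's test). Spata18, which encodes a mitochondrial quality control protein, had 51.3, 74.2, 116 and 48.7 CPM in Rfx1 KO libraries, against 64.9, 58.9, 81.4 and 104 CPM in Rfx1 WT libraries, and a difference of 2.08 ± 0.54 (SE, adjusted p 0.0355). Ccdc121 had 3.83, 3.52, 9.56 and 2.53 CPM in Rfx1 KO libraries, against 6.49, 4.04, 6.25 and 8.53 CPM in Rfx1 WT libraries, and a difference of 2.08 ± 0.58 (SE, adjusted p 0.045). In both genes KO replicate 3 was the highest and KO replicate 4 the lowest of the 8 Rfx1 libraries. In the Rfx2 line Spata18 had a median of 8.14 CPM in KO against 38.3 CPM in WT, and in the Rfx3 line 10.5 CPM in KO against 80.3 CPM in WT.

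**Figure D3:**
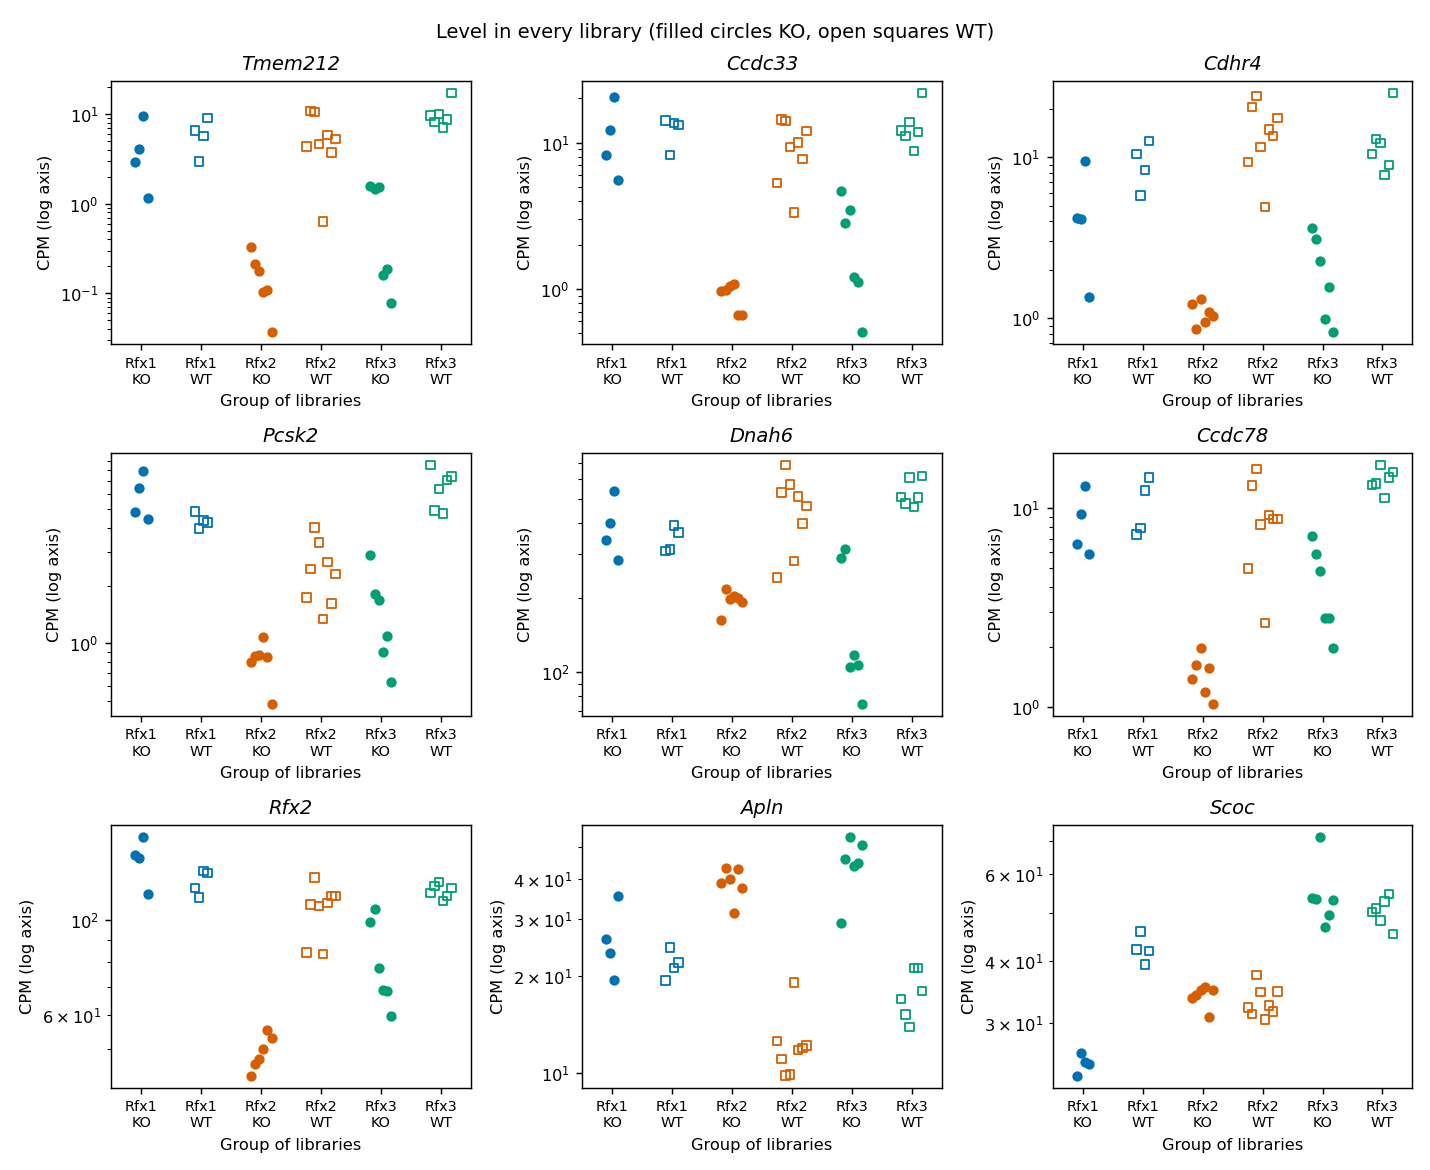
Level in CPM (log axis) of 9 genes in each of the 34 libraries, by group on the x axis, with KO as filled circles and WT as open squares. For the spared losses the Rfx1 KO points overlap the Rfx1 WT points (Ccdc33 at 5.54 to 20.6 CPM against 8.23 to 14.1 CPM). For Cdhr4, however, 3 of 4 Rfx1 KO points lie below every Rfx1 WT point. Rfx2 KO and Rfx3 KO points of the spared losses lie below their WT points, which the choice of genes favours. Apln is raised in Rfx2 KO and Rfx3 KO, and Scoc is lower in Rfx1 KO.

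Across the cilium, 12 lists with 266 tested genes covered the axoneme, its assembly, intraflagellar transport, the transition zone, centrioles and the regulators. The difference was positive for 247 of the 266 genes, with a median of 0.64 against -0.01 over all genes tested. It was called higher for 46 (17.3%, against 2.34% of all genes), among them the targeted Rfx2 and Rfx3, and lower for 4, among them Rfx1. The median effect of the 266 genes was -0.02 in the Rfx1 line, -0.60 in the Rfx2 line and -0.72 in the Rfx3 line. Of these genes 187 were lost in both other lines, and 43 were spared losses, so that 245 of the 288 spared losses lay outside the lists. Over all genes tested, 288 of 1330 lost genes were spared (21.7%), so the share among lost cilium genes was near that of all lost genes. The contrast shares the Rfx2 and Rfx3 libraries that define a loss, which raises the counts of higher calls. Only 1 of the 266 had a called Rfx1 effect, Rfx1 itself. The lists were written with earlier results of these data known.

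The motile axoneme gave the largest list medians, with near-zero medians in the Rfx1 line. Axonemal dyneins, the motors that bend the cilium, had 27 tested subunits, of which 11 were higher and 1 lower, and a median difference of 1.07. Their median effects were -0.01, -0.81 and -1.21 in the Rfx1, Rfx2 and Rfx3 lines, and single Rfx1 effects ran from -0.79 to 0.30. Among them, 9 of the 15 heavy chains tested were called higher, by 0.83 (Dnah9) to 1.95 (Dnah3 and Dnah10). Dnah6, an inner arm heavy chain (chromosome 6, 73017606 to 73221651), had 341, 401, 537 and 284 CPM in Rfx1 KO libraries, against 308, 313, 390.3 and 366 CPM in Rfx1 WT libraries. Rfx1 KO values lay on both sides of the WT values. In the Rfx2 line it ran from 163 to 216 CPM in KO against 241 to 686 CPM in WT, and in the Rfx3 line from 74.5 to 314 CPM in KO against 463 to 619 CPM in WT. Its difference was 1.64 ± 0.37 (SE, adjusted p 0.0221 in edgeR's test). The lower call was Dynll2, a dynein light chain that also serves other motors, with a difference of -0.28 and an Rfx3 effect of 0.26.

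The central pair, which regulates dynein activity, had 16 genes tested, of which 7 were higher, with a median difference of 1.23. Cfap74 (chromosome 4, 155409190 to 155466823), a central pair gene first described in Chlamydomonas and whose promoter stretch is printed above, had 122, 152, 198 and 99.5 CPM in Rfx1 KO libraries, against 113, 108, 156 and 149.9 CPM in Rfx1 WT libraries. The groups overlapped, and the difference was 1.39 ± 0.35 (SE, adjusted p 0.0331 in edgeR's test), with medians of 64.1 CPM in Rfx2 KO against 145 CPM in WT, and 44.6 CPM in Rfx3 KO against 158 CPM in WT. Hydin, a large central pair protein gene, had effects of 0.10, -1.51 and -1.99 in the Rfx1, Rfx2 and Rfx3 lines and a difference of 1.85, and Cfap65 had 0.08, -1.85 and -1.87 and a difference of 1.94. Radial spokes, which link the central pair to the outer doublets, had 18 genes tested and 4 higher, with a median of 1.06. Iqub, an IQ motif and ubiquitin domain gene of the spokes, had 113, 100.2, 124 and 81.6 CPM in Rfx1 KO libraries, against 111, 98.8, 109 and 104 CPM in Rfx1 WT libraries, and a difference of 0.78 ± 0.20 (SE, adjusted p 0.033).

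The list for nexin links and the axonemal ruler, which hold and space the doublets, had 19 genes tested and 7 higher, with a median of 1.03. Cfap100 had 70.2, 86.2, 102 and 59.7 CPM in Rfx1 KO libraries, against 81.6, 71.2, 90.5 and 86.2 CPM in Rfx1 WT libraries, and a difference of 0.71 ± 0.16 (SE, adjusted p 0.0225 in edgeR's test). Dynein arm assembly and docking had 24 genes tested, of which only Ttc25, a docking factor, was called higher by edgeR's test, against 8 called by DESeq2, although the median was 0.72 and all 24 differences were positive. Ttc25 had 60.3, 58.8, 84.8 and 49.7 CPM in Rfx1 KO libraries, against 65.3, 55.1, 65.4 and 75.3 CPM in Rfx1 WT libraries, and a difference of 0.79 ± 0.22 (SE, adjusted p 0.045). Both genes overlapped between the Rfx1 groups. Microtubule inner proteins and tubulins, which line or form the doublets, had 35 genes tested, 2 higher and 2 lower, and a median difference of 0.96. Their median Rfx1 effect was -0.10, with 30 of the 35 Rfx1 effects negative and 5 positive (47.7% negative over all genes).

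The 2 lower members of that last list were tubulin genes that rose without Rfx2 and without Rfx3, while their Rfx1 effects were not called. Tuba4a, an alpha tubulin (chromosome 1, 75214228 to 75219865), had 11.9, 14.1, 10 and 10.5 CPM in Rfx1 KO libraries, against 14.8, 15.2, 12.3 and 11.8 CPM in Rfx1 WT libraries. It ran from 21.7 to 27.0 CPM in Rfx2 KO against 13.6 to 24.0 CPM in Rfx2 WT, and from 20.7 to 29.4 CPM in Rfx3 KO against 9.71 to 12.5 CPM in Rfx3 WT. The Rfx2 groups overlapped and the Rfx3 groups did not, its effects were -0.21, 0.41 and 1.17 in the Rfx1, Rfx2 and Rfx3 lines, and the difference was -1.0 ± 0.16 (SE, adjusted p 0.000993 in edgeR's test). Tubb4a, a beta tubulin 0.249 Mb from Rfx2 on chromosome 17 and chosen after its values were seen, had effects of -0.37, 0.50 and 0.94 in the Rfx1, Rfx2 and Rfx3 lines and a difference of -1.10 ± 0.25 (SE, adjusted p 0.0202). It ran from 40.4 to 54.9 CPM in Rfx2 KO against 26.6 to 36.3 CPM in Rfx2 WT, and from 48.0 to 57.5 CPM in Rfx3 KO against 21.5 to 31.7 CPM in Rfx3 WT, without overlap in either line.

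Lists for transport, gating and centrioles gave smaller losses in the other lines and smaller differences. The median difference was 0.35 for IFT-B, 0.41 for IFT-A with dynein-2, and 0.35 for the BBSome, which move cargo along the cilium, 0.47 for the transition zone, which gates it, and 0.52 for centriole amplification, which supplies basal bodies. Their median Rfx1 effects lay between -0.06 and 0.02. Called higher were 1 of 22, 3 of 13, 1 of 16, 4 of 27 and 3 of 30 genes in that order, and none was called lower. Ift88, an IFT-B core subunit, had 77.7, 82.5, 106 and 69.2 CPM in Rfx1 KO libraries, against 72.7, 70.4, 83.0 and 86.7 CPM in Rfx1 WT libraries, and a difference of 0.87 ± 0.21 (SE, adjusted p 0.027 in edgeR's test). Wdr35, an IFT-A subunit, had 326, 299.5, 368 and 282 CPM in Rfx1 KO libraries, against 318, 305, 319.7 and 338 CPM in Rfx1 WT libraries, and a difference of 0.47 ± 0.13 (SE, adjusted p 0.0468). In both genes the Rfx1 groups overlapped.

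Bbs1 and Tctn1 lay slightly above their wild types without Rfx1, short of the test. Bbs1, a BBSome subunit, had 162, 162, 186 and 156 CPM in Rfx1 KO libraries, against 145, 145, 156 and 158 CPM in Rfx1 WT libraries. Its Rfx1 effect was 0.14 (95% interval -0.14 to 0.42), and the difference was 0.69 ± 0.16 (SE, adjusted p 0.0234 in edgeR's test). Tctn1, a transition zone gene whose promoter held the inverted repeat, had 57.2, 66.3, 66.9 and 66.0 CPM in Rfx1 KO libraries, against 53.1, 56.5, 62.4 and 63.4 CPM in Rfx1 WT libraries. Its difference was 0.51 ± 0.12 (SE, adjusted p 0.0221 in edgeR's test), with Rfx1, Rfx2 and Rfx3 effects of 0.12, -0.32 and -0.46. Ccdc78, described in Xenopus as a gene of the deuterosome, where centrioles multiply, had 6.59, 9.30, 12.9 and 5.88 CPM in Rfx1 KO libraries, against 7.32, 7.92, 12.2 and 14.2 CPM in Rfx1 WT libraries. Its median was 1.49 CPM in Rfx2 KO against 8.78 CPM in Rfx2 WT, and 3.82 CPM in Rfx3 KO against 13.7 CPM in Rfx3 WT. The difference of 1.88 ± 0.43 (SE, adjusted p 0.0225) was the largest in the centriole list.

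**Figure D4:**
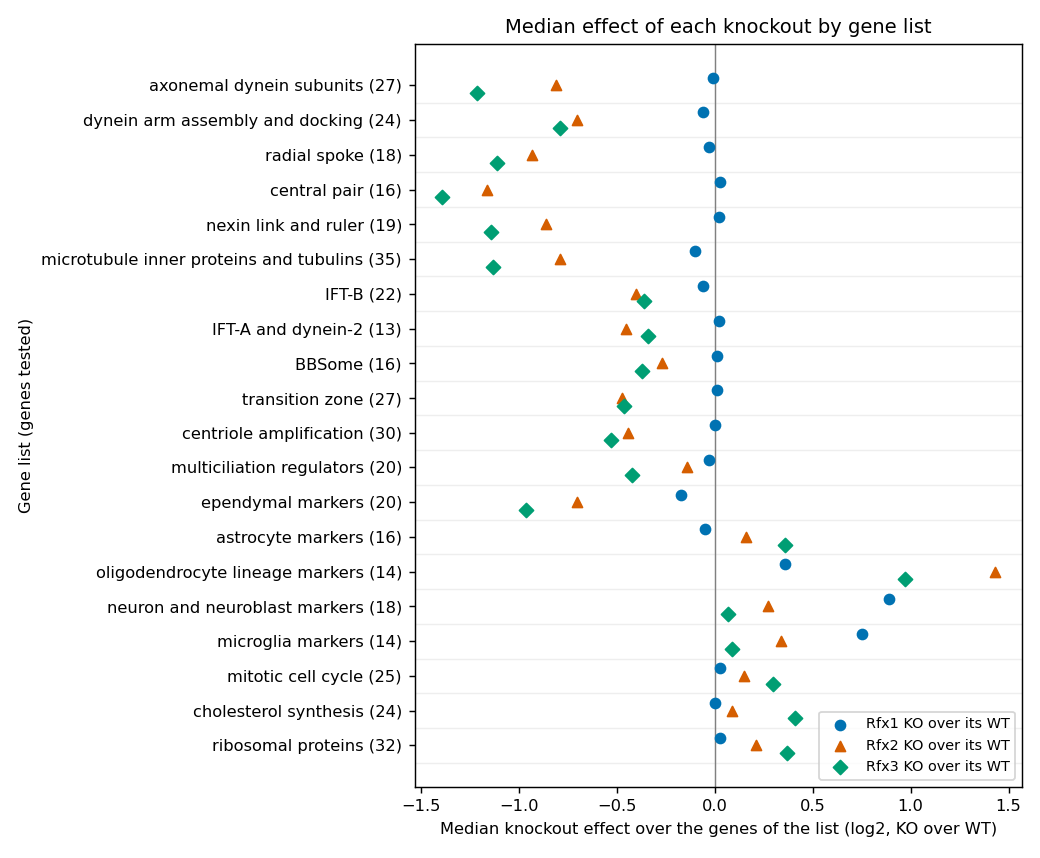
Median knockout effect (x axis, log2 of KO over WT) over the tested genes of each list (y axis, number of genes in brackets), for the Rfx1 (blue circles), Rfx2 (orange triangles) and Rfx3 lines (green diamonds). In the cilium lists the Rfx1 medians lie between -0.10 and 0.03, and the medians of the other lines lie below them, as low as -1.39 for the Rfx3 effect on the central pair.

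Of 35 named genes with a called difference, 9 were called under every alternative setting and without any 1 library. These were Rfx1, Rfx2, Rfx3, Ccdc33, Pcsk2, Apln, Scoc, Tmem38a and Tuba4a. Rfx1, Rfx2 and Rfx3 are the targeted genes, so the knockouts themselves set their differences. Of the 8 named spared losses with the largest differences, only Ccdc33 and Pcsk2 are among the 9. Leaving out Rfx1 KO replicate 3 or Rfx1 WT replicate 2 ended 25 of the 35 calls each, Rfx1 WT replicate 1 ended 20 and Rfx1 WT replicate 3 ended 19. Leaving out Rfx1 KO replicate 2 ended 8, and every other single library at most 6. Using replicates 1 to 4 only ended 23 of the 35 calls, the replicate block 19, limma-voom 8 and a term for Y-linked counts 6, while RLE scaling and DESeq2 ended 0.

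Genes lost in a single other line seldom had a called difference from the mean effect. A loss seen in 1 line is diluted in that mean. The difference was called higher for 5 of 552 genes lost in the Rfx2 line only (0.906%) and for 44 of 1317 lost in the Rfx3 line only (3.34%), shares below and near the 2.34% of all genes. Against the Rfx2 effect alone, 16 of those 552 genes were called higher (against 0.593% of all genes). Against the Rfx3 effect alone, 316 of those 1317 were (against 4.79%). The choice of genes shares these libraries and raises both counts. Cfap73, a member of the nexin link and ruler list, had effects of -0.08, -0.46 and -3.38 in the Rfx1, Rfx2 and Rfx3 lines. Efcab1, an EF-hand gene, had effects of -0.29, -0.29 and -3.39, so that the differences of 1.84 and 1.55 for these genes came from the Rfx3 line. Of the 5 lost with Rfx2 only, Guca1b, Tspo2, Pot1b and Khsrp lie on chromosome 17 with Rfx2, at 9.38, 8.32, 1.06 and 0.19 Mb from it, and Gdnf does not. Chromosome 17 holds 727 of the 14833 genes tested (4.9%). Khsrp, an RNA-binding protein gene chosen after its values were seen, had 134, 150.2, 133 and 155 CPM in Rfx1 KO libraries, against 144, 138, 138 and 143 CPM in Rfx1 WT libraries. It ran from 79.0 to 85.8 CPM in Rfx2 KO, against 102 to 117 CPM in Rfx2 WT. Its difference was 0.25 ± 0.07 (SE, adjusted p 0.0447 in edgeR's test).

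Genes gained in both other lines were likewise near their wild-type level without Rfx1. There were 575 such genes (3.88%), with median effects of 0.02, 0.29 and 0.34 in the Rfx1, Rfx2 and Rfx3 lines and a median difference of -0.30. The difference was called lower for 65 of them (11.3%, against 0.802% of all genes), a share that the shared libraries also raise. Averaged over the 575 genes, log2 CPM relative to the WT mean of the line was 0.08, 0.02, -0.17 and 0.14 in Rfx1 KO libraries, against 0.06, 0.08, -0.03 and -0.12 in Rfx1 WT libraries. It ran from 0.36 to 0.43 in Rfx2 KO and from 0.25 to 0.52 in Rfx3 KO libraries, values that the choice of genes raises.

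Apln, which encodes the secreted peptide apelin (chromosome X, 48025146 to 48034853), showed this pattern clearly. It had 26.1, 23.6, 19.4 and 35.3 CPM in Rfx1 KO libraries, against 19.4, 24.5, 21.2 and 22 CPM in Rfx1 WT libraries. In the Rfx2 line it ran from 31.3 to 43.3 CPM in KO against 9.84 to 19.1 CPM in WT, and in the Rfx3 line from 29.1 to 54.0 CPM in KO against 13.9 to 21.2 CPM in WT. The groups were separate in both of those lines and overlapped in the Rfx1 line, with a difference of -1.23 ± 0.21 (SE, adjusted p 0.00292 in edgeR's test). Fam107a, an actin-associated protein gene expressed in glia, had 36.8, 34.5, 33.1 and 25.7 CPM in Rfx1 KO libraries, against 32.9, 31.9, 33.9 and 28.8 CPM in Rfx1 WT libraries, and a difference of -1.18 ± 0.27 (SE, adjusted p 0.0226). Cpxm2, a carboxypeptidase-like gene, had 12.7, 10.1, 13.6 and 11 CPM in Rfx1 KO libraries, against 18, 10.3, 12.8 and 12.4 CPM in Rfx1 WT libraries. Its levels were 44.2 to 61.5 CPM in Rfx2 KO against 13.8 to 36.7 CPM in Rfx2 WT, and the difference was -1.28 ± 0.31 (SE, adjusted p 0.0263 in edgeR's test).

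Slco1c1, a thyroid hormone transporter gene, was lower in the contrast by -1.39 ± 0.34 (SE, adjusted p 0.0263 in edgeR's test). It had 14.3, 23.2, 10.2 and 13.6 CPM in Rfx1 KO libraries, against 17.7, 29.0, 27.6 and 10.6 CPM in Rfx1 WT libraries, and its Rfx1, Rfx2 and Rfx3 effects were -0.46, 0.62 and 1.24. Adam23 and Clvs2, an adhesion gene of the ADAM family and a lipid-binding clavesin gene, differed by -1.27 and -1.18, with adjusted p of 0.0263 and 0.0381. Adam23 ran from 2.20 to 3.83 CPM in Rfx1 KO and from 2.92 to 5.56 CPM in Rfx1 WT libraries, and Clvs2 from 3.14 to 8.11 CPM in Rfx1 KO and from 3.84 to 7.71 CPM in Rfx1 WT libraries. Adam23 and Clvs2 were called higher in the Rfx3 line but not in the Rfx2 line (Rfx2 adjusted p 0.0991 and 0.0556 in edgeR's test), and Slco1c1 was called higher in both. For all 3 genes the Rfx1 groups overlapped and the Rfx3 effect, at 1.24 to 1.55, exceeded the Rfx2 effect, at 0.44 to 0.62.

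The few called Rfx1 effects lay around Rfx1 on chromosome 8. All 6 genes with a called Rfx1 effect, Rfx1, Scoc, Tmem38a, Mri1, Fcho1 and Zfp963, lie on that chromosome, which holds 787 of the 14833 genes tested (5.31%). Scoc, Mri1 and Zfp963 had no called effect in either other line, while Rfx1 (-0.44) and Tmem38a (0.26) also had a called Rfx3 effect and Fcho1 (0.56) a called Rfx2 effect, which enter their differences. Of 15 genes whose difference was called although neither their Rfx2 nor their Rfx3 effect was called, 9 lie on chromosome 8, all within 14.3 Mb of Rfx1, and 8 of them at lower coordinates than Rfx1. The other 6 were Rnf17, Catsperz, Gda, Celf3, Tek and Mtf2. Within 10 Mb of Rfx1, 138 genes were tested. The difference was called lower for 3 of them (2.17%, against 0.802% of all genes), Rfx1, Scoc and Mri1, and higher for 3 (2.17%, near the 2.34% of all genes), Inpp4b, Abcc12 and Rpgrip1l, each with a called loss in at least 1 other line.

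Scoc, which encodes a small coiled-coil protein of Golgi membranes (chromosome 8, 83430084 to 83458391), had 23.4, 26.0, 25 and 24.7 CPM in Rfx1 KO libraries, against 42.2, 45.9, 39.4 and 41.9 CPM in Rfx1 WT libraries. The groups were far apart, with an Rfx1 effect of -0.77 (adjusted p 5e-06) and a difference of -0.85 ± 0.10 (SE, adjusted p 1.04e-05 in edgeR's test). Its effects in the Rfx2 and Rfx3 lines were 0.04 and 0.12. Tmem38a, a subunit gene of an intracellular potassium channel 11.5 Mb from Rfx1, had 33.9, 34.9, 38.7 and 41.5 CPM in Rfx1 KO libraries, against 50.8, 56.2, 51.7 and 45.1 CPM in Rfx1 WT libraries, without overlap. Its effects were -0.45, 0.12 and 0.26 in the Rfx1, Rfx2 and Rfx3 lines, and all 6 Rfx3 KO libraries, at 45.4 to 55.2 CPM, lay above every Rfx3 WT library, at 41.5 to 44.7 CPM. Its difference was -0.64 ± 0.08 (SE, adjusted p 3.73e-05 in edgeR's test). Mri1, a methionine salvage enzyme gene 0.153 Mb from Rfx1, had 7.27, 9.45, 8.03 and 8.31 CPM in Rfx1 KO libraries, against 13.2, 10.9, 13.4 and 12.9 CPM in Rfx1 WT libraries, also without overlap, and a difference of -0.63 ± 0.13 (SE, adjusted p 0.0168).

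The 2 neighbours that rose without Rfx1 were Fcho1, an endocytosis gene 12.3 Mb away, and Zfp963, a zinc finger gene 14.3 Mb away, both chosen after their values were seen. Fcho1 had 19, 18.4, 12.6 and 15.7 CPM in Rfx1 KO libraries, against 9.66, 8.85, 10 and 9.75 CPM in Rfx1 WT libraries, with an Rfx1 effect of 0.78 (adjusted p 0.000973 in edgeR's test). It was also higher in Rfx2 KO, at 14.5 to 16.2 CPM against 8.98 to 12.8 CPM in Rfx2 WT libraries, which left a difference of 0.53. Zfp963 had 13, 9.96, 8.44 and 7.34 CPM in Rfx1 KO libraries, against 6.59, 5.43, 5.69 and 4.99 CPM in Rfx1 WT libraries, with an Rfx1 effect of 0.77 (adjusted p 0.0288) and a difference of 0.72. In both genes every Rfx1 KO library exceeded every Rfx1 WT library.

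**Figure D5:**
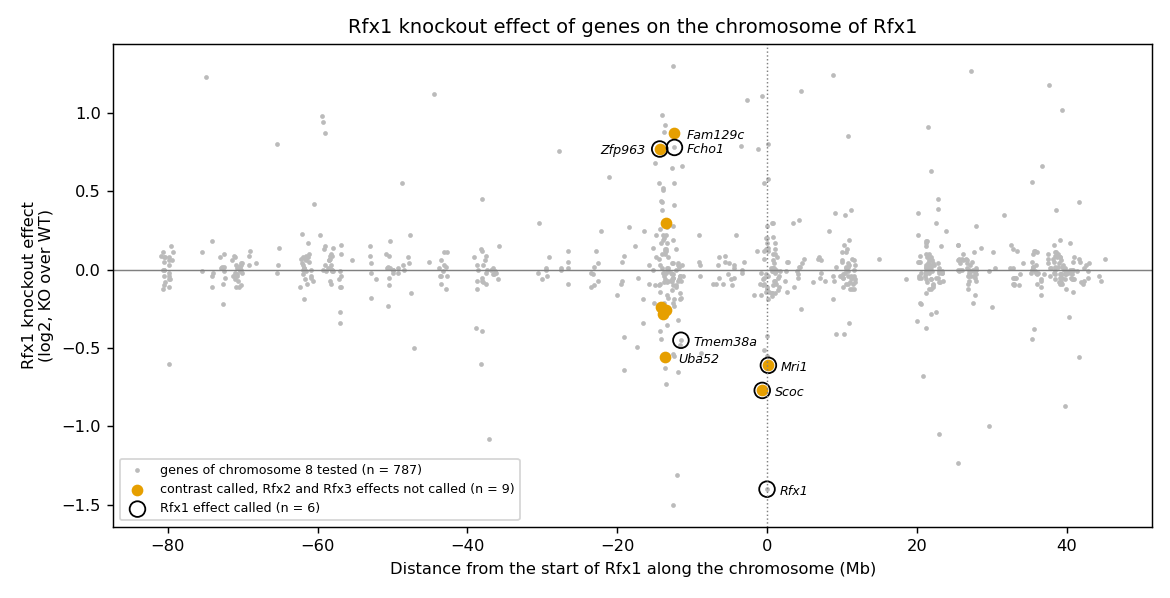
Rfx1 knockout effect (y axis, log2 of KO over WT) of the 787 tested genes of chromosome 8 against their distance from the start of Rfx1 in Mb (x axis). Orange points are the 9 genes whose contrast was called although neither the Rfx2 nor the Rfx3 effect was called, and rings mark the 6 called Rfx1 effects; all ringed and orange points lie within 14.3 Mb of Rfx1.

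Markers of other cell types moved between libraries of the Rfx1 line, and some moved with loss of Rfx2 or Rfx3, and they are given here beside the spared losses. The 20 ependymal markers had 6 called higher differences (Sntn, Ccdc153, Tmem212, Cd24a, Fam216b and Hdc, against 2.34% of all genes) and a median difference of 0.78. Their median Rfx1 effect was -0.17, with 17 of the 20 Rfx1 effects negative and 3 positive (47.7% negative over all genes). Their mean log2 CPM relative to Rfx1 WT was -0.19, -0.32, 0.29 and -0.89 in Rfx1 KO libraries, and their summed level was 15045 to 18665 CPM in Rfx1 KO against 15695 to 19509 CPM in Rfx1 WT libraries. None of the 14 microglia markers had a called effect in any line or contrast by edgeR's test, and 0 reached an unadjusted p below 0.05 in the contrast, although all 14 Rfx1 effects were positive, with a median of 0.75. The 4 Rfx1 KO libraries held 234, 434, 184 and 61.0 CPM of them in sum, against 155, 163, 189 and 93.3 CPM in Rfx1 WT libraries, and both other lines held 141 to 2011 CPM. Neuron and neuroblast markers had positive Rfx1 effects for 17 of 18 genes, with a median of 0.89, 6 at an unadjusted p below 0.05 and 0 called by edgeR's test, DESeq2 or limma-voom, and summed levels of 179 to 297 CPM in Rfx1 KO against 173 to 246 CPM in Rfx1 WT libraries.

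For oligodendrocyte lineage markers the median effects were 0.36, 1.43 and 0.97 in the Rfx1, Rfx2 and Rfx3 lines, with 0 of 14 called in the contrast by edgeR's test or DESeq2 and 1 at an unadjusted p below 0.05. Called higher were 5 of the 14 in the Rfx2 line (against 9.28% of all genes) and 2 in the Rfx3 line (against 18.3%). In the Rfx2 line 1 of the 14 was called lower. Their summed level was 473 to 605 CPM in Rfx1 KO against 563 to 602 CPM in Rfx1 WT, 319 to 785 CPM in Rfx2 KO against 413 to 703 CPM in Rfx2 WT, and 630.2 to 936 CPM in Rfx3 KO against 564 to 831 CPM in Rfx3 WT libraries. The 16 astrocyte markers had 0 called in the contrast by edgeR's test, 1 by DESeq2 and 4 at an unadjusted p below 0.05, and a median difference of -0.40, with summed levels of 6718 to 11569 CPM in Rfx1 KO against 7014 to 12759 CPM in Rfx1 WT libraries. Astrocyte markers moved opposite to the lost genes in the other lines. Of the 16, 3 were called higher in the Rfx2 line (against 9.28% of all genes) and 7 in the Rfx3 line (against 18.3%), with 0 lower and median effects of -0.05, 0.16 and 0.36 in the Rfx1, Rfx2 and Rfx3 lines. Their mean log2 CPM relative to the WT of the line was 0.22 ± 0.28 in Rfx2 KO and 0.55 ± 0.38 in Rfx3 KO libraries (SD, n = 6 each). Their summed level was 9629 to 15165 CPM in Rfx2 KO against 7907 to 12572 CPM in Rfx2 WT, and 6268 to 9034 CPM in Rfx3 KO against 5549 to 8677 CPM in Rfx3 WT libraries. Choroid plexus markers had 0 of 9 called by edgeR's test, 1 by DESeq2 and 3 at an unadjusted p below 0.05, and vascular and mural markers 1 of 9, Tek, which was higher. No tested marker was at 0 in every library, while Cldn5, the endothelial claudin, reached a count of at most 1 and Mog, a myelin gene, of at most 8, and neither passed the filter. Mitotic genes had 0 of 25 called in the contrast by edgeR's test or DESeq2 and 1 at an unadjusted p below 0.05, and Rfx1 KO replicate 4, the library lowest in lost genes, had the highest summed level of them in the Rfx1 line, at 2972 CPM against 1679 to 2287 CPM in the other 7 libraries. The part of these markers in the spared losses was not tested.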

How the data were processed

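RNA-seq counts per Ensembl gene were used as the authors deposited them, as raw whole-number counts with 1 column per library and no normalization. CASAVA 1.8.2, STAR 2.4, featureCounts 1.4.6 and the GRCm38 genome are named, per the submitters' processing notes. Whether counting used strand, and which annotation release, is not given in the sources used here. Libraries were prepared with the TruSeq RNA-seq protocol and RNA was purified on RNeasy columns, per the labels' protocols. All 34 columns matched a sample title, which gave group and replicate number. Of 21647 identifiers, 21583 matched GENCODE M21, which supplied symbols and positions, and the other 64 held 0.0341% to 0.0417% of a library's counts. Total counts of 18.2 to 53.4 M set the counting error, and all 85 replicate pairs differed by more than that error (chi-squared per degree of freedom 4.01 to 203).

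The 6 groups were fitted together in edgeR 4.0.16 (R 4.3.3) with TMM scaling and filterByExpr (minimum count 10, minimum total 15), and contrasts were tested by the two-sided quasi-likelihood F test with Benjamini-Hochberg adjustment at 0.05. Standard errors were derived from that test. For means over gene sets, log2 CPM used a prior count of 2. The procedure was run on simulated counts with known changes, drawn with the same spread in every group. Such counts cannot show how it behaves where groups differ in spread, as the groups here do. Alternatives were RLE scaling, no low-count filter, a term for Y-linked counts, replicates 1 to 4 only, a replicate block, limma-voom (limma 3.58.1) without and with weights per group, DESeq2 1.42.0, each line fitted alone, and each library left out.

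The comparison, the 27 gene lists (510 symbols, 9 without a match) and the rule for naming genes were chosen with earlier results of these data known. The rule took Rfx1, Rfx2, Rfx3, Foxj1 and Mcidas; the 8 spared losses with the largest difference, among genes averaging 1 or more in log2 CPM whose Rfx2 and Rfx3 knockouts all lay below the wild-type mean; the 6 largest lower differences; the 4 genes called in the contrast and the Rfx1 effect with the smallest p; and the member of each cilium list with the smallest p. Predicted and Y-linked genes were left out. Genes named as counted sets, threshold neighbours, list examples, Tctn3, 1700010I14Rik, Fcho1, Zfp963, Khsrp and Tubb4a lie outside it and were chosen after their values were seen. Promoter and motif shares used RefSeq sequences.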

Additional observations from a re-analysis of the deposited data

Results flagged for a closer look

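The effect of losing Rfx1 differed from the mean effect of losing Rfx2 and Rfx3, by the adjusted test of that difference in edgeR, for 35 of the genes described above. Among spared losses and cilium genes the difference on the log2 scale was 3.89 for Tmem212, 2.89 for Ccdc33, 2.53 for Qrfp, 2.4 for Musk, 2.27 for Pcsk2, 2.24 for Cdhr4, 2.08 for Ccdc121 and 2.08 for Spata18. It was 1.88 for Ccdc78, 1.64 for Dnah6, 1.39 for Cfap74, 0.87 for Ift88, 0.79 for Ttc25, 0.78 for Iqub, 0.71 for Cfap100, 0.69 for Bbs1, 0.51 for Tctn1 and 0.47 for Wdr35. Among genes called higher in at least 1 other line it was -1.39 for Slco1c1, -1.28 for Cpxm2, -1.27 for Adam23, -1.23 for Apln, -1.18 for Clvs2, -1.18 for Fam107a, -1.10 for Tubb4a and -1.0 for Tuba4a. The targeted genes gave -1.13 for Rfx1, 1.0 for Rfx2 and 1.36 for Rfx3. Near the targeted loci it was -0.85 for Scoc, -0.64 for Tmem38a, -0.63 for Mri1, 0.72 for Zfp963, 0.53 for Fcho1 and 0.25 for Khsrp.

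A single library stood far from the others of its group, by Dixon's criterion, in 13 of 240 groups examined, and chance alone gives about 1 in 20. Among Rfx3 libraries these were WT replicate 6 for Tmem212 (17.2 CPM), Musk (20.4 CPM) and Cdhr4 (25.1 CPM), WT replicate 5 for Qrfp (15.7 CPM) and WT replicate 3 for Tctn1 (58.7 CPM). KO replicate 3 of that line stood apart for Scoc (71.6 CPM), Mri1 (16.8 CPM) and Khsrp (104 CPM). In the Rfx2 line KO replicate 5 did so for Scoc (30.8 CPM) and Cfap100 (68.5 CPM), and WT replicate 5 for Apln (19.1 CPM). In the Rfx1 line it was KO replicate 1 for Tctn1 (57.2 CPM) and WT replicate 2 for Ccdc33 (8.23 CPM).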

How the results depend on the processing

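Counts of called genes moved with the test far more than effects did. Against 347 genes higher, 119 lower and 288 spared losses, RLE scaling kept all of these within 1.5-fold. Without the low-count filter 78 genes were lower. A term for Y-linked counts gave 219 higher and 177 spared losses. With replicates 1 to 4 only, 32 were higher, 8 lower, 27 spared and 465 lost in both lines, with 52 calls for Rfx1 minus Rfx3, 1750 for the Rfx2 effect and 1784 for the Rfx3 effect. Limma-voom gave 70 lower and 57 calls for Rfx1 minus Rfx2, and with weights per group 600 higher, 521 spared, 253 and 621 calls for Rfx1 minus Rfx2 and minus Rfx3, and 5084 and 3217 for the Rfx2 and Rfx3 effects. DESeq2 gave 692 higher, 248 lower, 580 spared and 331 for Rfx1 minus Rfx2. Each line fitted alone gave 747 higher, 567 spared, 515 for Rfx1 minus Rfx2, 1 for the Rfx1 effect and 3277 for the Rfx3 effect. The cause of these shifts was not tested.

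Correlations of same-numbered KO and WT deviations ran from 0.139 to 0.578 in the Rfx2 line, which is at most a hint of pairing there. Rfx2 KO replicates 3, 5 and 6 correlated more with a WT library of another number (0.622, 0.426 and 0.452). Same-numbered correlations ran from -0.065 to 0.332 in the Rfx1 line and from -0.332 to 0.198 in the Rfx3 line, so the numbers were not taken as pairs. With a replicate block, 70 genes were higher, 36 lower and 59 spared, and 51 were called for Rfx1 minus Rfx2.

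Leaving out 1 library gave 21 to 788 higher, 6 to 330 lower, 16 to 664 spared and 1150 to 1799 lost in both lines. Calls ran from 46 to 292 for Rfx1 minus Rfx2, 286 to 2041 for Rfx1 minus Rfx3, 3 to 8 for the Rfx1 effect, 2589 to 4428 for the Rfx2 effect and 4476 to 6204 for the Rfx3 effect. The median Rfx1 effect of genes lost in both lines ran from -0.167 to 0.034, and under the other settings from -0.066 to -0.041. Among named genes, 70 of 333 values under alternative settings and 168 of 1258 without 1 library lost a call, and 1, for Mcidas with each line fitted alone, gained one. With 4 KO and 4 WT libraries, the Rfx1 line has the largest median standard error of the 3 lines, 0.13. The spread behind it is estimated over all groups together.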

Other observations

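Enzymes that modify axonemal tubulin showed the pattern of the cilium lists, though these families were chosen after their values were seen. Of 12 tubulin tyrosine ligase-like genes tested, which add glutamate or glycine chains, 4 were called higher in the difference between the Rfx1 effect and the mean of the others: Ttll3 (1.18), Ttll4 (0.63), Ttll6 (1.21) and Ttll13 (1.29), against 2.34% of all genes. Their median effects were 0.03, -0.47 and -0.69 in the Rfx1, Rfx2 and Rfx3 lines. Of 5 cytosolic carboxypeptidases, which remove such chains, Agbl2 (0.76) and Agbl5 (0.83) were called higher, with family medians of -0.02, -0.69 and -0.99. A family outside the cilium, collagen type IV, also had 2 of 7 genes called higher, Col4a1 (0.62) and Col4a2 (0.73), but its median effects were 0.01, 0.19 and -0.01.

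Regulators of multiciliation had 20 genes tested, with Rfx2 and Rfx3 higher, Rfx1 lower and a median difference of 0.29, and the RFX family, of which 9 were tested, had a median of 0.08. General lists had no called gene in the difference by edgeR's test, but several moved in the Rfx3 line. Called higher without Rfx3 were 27 of 32 ribosomal protein genes, 19 of 24 cholesterol synthesis genes and 7 of 25 mitotic genes, against 18.3% of all genes, and the counts without Rfx2 were 6, 1 and 0 in that order. In Rfx1 minus Rfx3 alone, 7 cholesterol synthesis genes were lower. The median difference was -0.27 for 32 ribosomal protein genes, with 9 at an unadjusted p below 0.05 and 0 called by DESeq2, and -0.24 for 24 cholesterol synthesis genes, with 5 and 0. It was -0.26 for 15 immediate early genes, with 2 and 0, 0.27 for 17 interferon response genes, with 2 and 0, -0.15 for 14 neural progenitor genes, with 3 and 1, and -0.19 for mitotic genes. The 4 Y-linked genes had Rfx1 effects of -2.03 to -1.92, and 0 were called.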
